A study of Mus musculus with 6 samples.

Results

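The chaperones described here are the cytosolic, nuclear and mitochondrial heat shock chaperones of the mouse together with their main regulators. They were chosen by name from the protein-coding symbols of the GENCODE M21 annotation: the numbered Hspa, Hspb, Hspd, Hspe, Hsph, Dnaja, Dnajb, Dnajc and Cct genes, plus Hsf1, Hsf2 and Bag3, without the endoplasmic reticulum (ER) chaperones Hspa5, Dnajb9 and Dnajc3. In all, 76 of the 43346 genes counted were members, and 64 of these 76 were among the 14000 genes with enough counts to be tested. Hspa14 has a symbol of this form in the annotation, but no counted gene was matched to it as protein-coding, so it was not analysed here. The name pattern takes in J proteins and 1 HSP70 of the ER as well, so the set is wider than the cytosol and the mitochondria. It does not take in Hsp90aa1 and Hsp90ab1, nor the chaperonin subunits Tcp1 and Cct6a, which are given below as other genes of the pathway.

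The cells were primary C57BL/6 mouse embryonic fibroblasts (MEFs), cells grown out of embryos that divide for a limited time in culture, used at passage 9. One group received the solvent DMSO and the other 3 µM erastin, and RNA was taken after 24 h; erastin blocks cystine uptake and is used to bring on ferroptosis, a cell death driven by lipid peroxidation. Each group had 3 libraries of total RNA depleted of ribosomal RNA, sequenced on an Ion Proton. The labels do not say whether the replicates were separate cultures or embryos, so p-values measure the spread between these libraries, which may be technical.

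Chaperones of the heat shock families bind unfolded proteins and keep them from clumping. HSP70 proteins do this in cycles of ATP use that J proteins (the Dnaj genes) start and exchange factors such as the HSP110 proteins reset. Chaperonins enclose a protein in a chamber to fold it, and small heat shock proteins hold unfolded protein without using ATP. In stressed cells the transcription factor HSF1 binds heat shock elements, inverted repeats of the letters GAA, in the promoters of many of these genes.

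The libraries held 13333911 to 20509970 counts, so that 3 counts, taken as the detection floor, were worth 0.14 to 0.234 CPM (counts scaled to library size). Of the 14000 genes tested, 6028 (43.1%) passed an adjusted p under 0.05, 21.6% higher and 21.5% lower with erastin. All 11 fibroblast markers were measured in every library; 9 of them were lower with erastin and none higher, and their summed level was 35832 to 38828 CPM in DMSO and 25704 to 27146 CPM in erastin libraries. Collagen Col1a1 went from 10976 ± 429 to 6607 ± 261 CPM (SD, n = 3 each; log2 fold change -0.73, adjusted p = 2.65e-07), while Fn1 (log2 fold change 0.07, adjusted p = 0.495) and Dcn (log2 fold change -0.30, adjusted p = 0.053) did not pass. Among markers of other cell types, the epithelial genes stayed at or below 0.838 CPM in every library and the 4 macrophage and leukocyte genes did not pass the test. The 4 neural genes summed to 14.5 to 19.3 CPM in DMSO and 16.1 to 19.3 CPM in erastin libraries. The 4 endothelial genes summed to 4.66 to 7.10 CPM in DMSO and 13.2 to 16.4 CPM in erastin libraries. Of these, Kdr (log2 fold change 1.38, adjusted p = 0.00172) and Tek (log2 fold change 1.45, adjusted p = 0.00117) were higher with erastin; Pecam1 and Cdh5 were at most 0.778 CPM in any library. The part of these shifts in the results below was not tested.

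Most chaperone transcripts that changed were higher with erastin. Of the 64 tested members, 38 (59.4%) passed, against 43.1% of all genes tested; 30 (46.9%) were higher, against 21.6% of all genes, and 8 (12.5%) were lower, against 21.5%. The median log2 fold change over the tested members was 0.24, beside -0.0014 over all genes. A rise of at least 1 on the log2 scale with an adjusted p under 0.05 was seen in 8 members (12.5%, against 4.99% of all genes) and a fall of that size in 2 (3.12%, against 7.16%). The 3 erastin libraries lay above all 3 DMSO libraries in 36 members (56.2%, against 26.7% of all genes) and below them in 11 (17.2%, against 25.9%). The summed level of all 76 members went from 5304 ± 118 to 7091 ± 22.0 CPM (SD, n = 3 each), and the groups did not overlap. Because RNA was measured in bulk, fewer cells of a kind and less RNA per cell cannot be told apart.

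Members differed in depth as well as in change. All 38 members that passed had a mean count of at least 50; among genes of that depth 38 of 60 members (63.3%) passed, beside 50.2% of all such genes, with 30 higher (beside 25.7%) and 8 lower (13.3%, beside 24.5%). No tested member entered through the libraries of 1 group alone: Dnajb3 and Dnajc19 were under the cut of 0.566 CPM in some libraries but above it in at least 2 of each group, and the others were above it in every library. The 12 members left out by the filter on low counts were Hspa1l, Hspb3, Hspb9, Cct6b, Cct8l1, Dnajb7, Dnajb8, Dnajb13, Dnajc5b, Dnajc5g, Dnajc6 and Dnajc22. In 6 of these, Hspb3, Cct8l1, Dnajb7, Dnajb8, Dnajc5b and Dnajc5g, no library had a count.

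**Figure D1:**
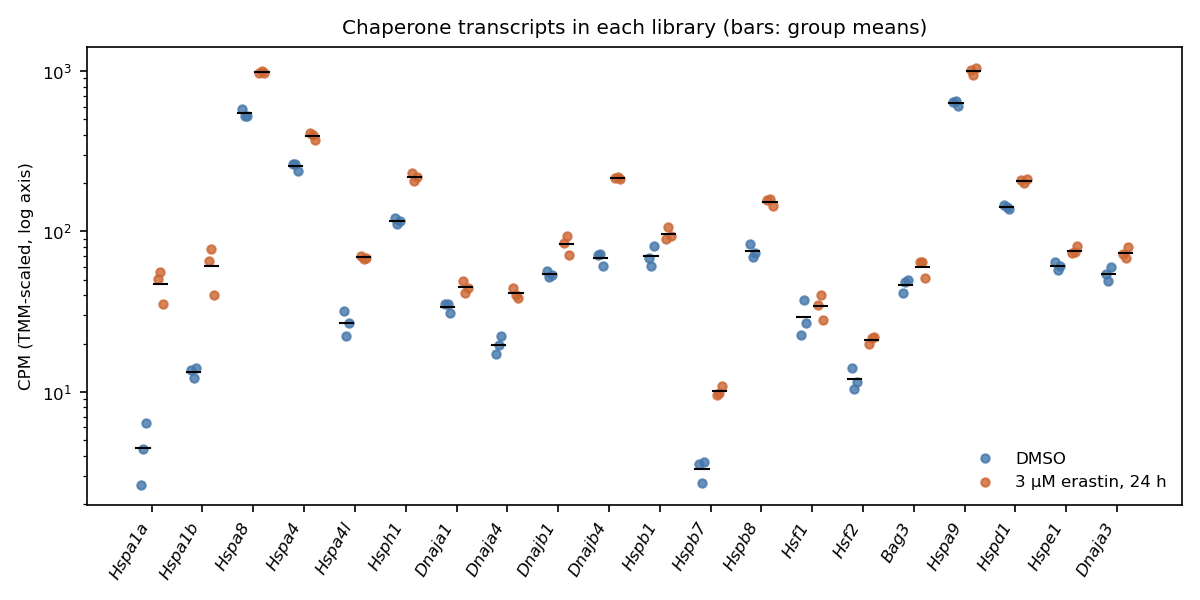
Levels of 20 chaperone genes in each library, in TMM-scaled CPM on a log axis, with DMSO in blue, erastin in orange and bars at the group means. Of the 4 HSP70 genes drawn, Hspa1a and Hspa1b start lowest and move furthest, Hspa8 and Hspa9 are at the highest CPM, and the Hsf1 points of the groups overlap.

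The heat-inducible cytosolic HSP70 genes Hspa1a and Hspa1b rose most of all members, and the constitutive Hspa8 rose from a far higher base. Hspa1a was at 2.64, 4.43 and 6.38 CPM in the DMSO libraries and 50.6, 56.1 and 35.2 CPM in the erastin libraries, in the order of replicates 1, 2 and 3 as in all such lists. Its lowest erastin library was above its highest DMSO library by several times (log2 fold change 3.40, SE 0.24, adjusted p = 6.33e-08, edgeR quasi-likelihood test). Hspa1b was at 13.7, 12.2 and 14.2 CPM in the DMSO libraries and 65.8, 77.5 and 40.3 CPM in the erastin libraries, also without overlap (log2 fold change 2.20, SE 0.19, adjusted p = 4.21e-07). In both genes erastin replicate 3 was the lowest of its group.

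Hspa1a (chr17:34969190-34972156, GRCm38, minus strand) and Hspa1b (chr17:34956436-34959238, minus strand) are near-identical neighbours. Of the 100-base windows of their longest transcripts, 48.6% of those of Hspa1a and 49.9% of those of Hspa1b occur unchanged in another gene's transcript. Reads could thus be split between them, or left uncounted, in a way the counts do not show. The last 150 bases before the start of each, which show how alike the upstream regions of the 2 most changed members are, read as follows, with the inverted repeat GAANNTTC in capitals (RefSeq, GRCm38.p6; chr17:34972157-34972306, minus strand, and chr17:34959239-34959388, minus strand).
Hspa1a: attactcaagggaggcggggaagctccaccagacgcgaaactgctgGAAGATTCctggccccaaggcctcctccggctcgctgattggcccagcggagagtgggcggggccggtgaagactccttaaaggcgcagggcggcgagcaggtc
Hspa1b: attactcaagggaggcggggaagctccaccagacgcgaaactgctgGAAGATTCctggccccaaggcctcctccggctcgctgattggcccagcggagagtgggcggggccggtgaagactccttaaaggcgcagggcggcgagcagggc
The repeat lies 104 to 97 bases before the start in both. Over the 250 bases before the start, the sequences differed at 3 positions (98.8% identical).

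Hspa8, the HSP70 that cells make at all times, was at 581, 526 and 528 CPM in the DMSO libraries and 972, 999.6 and 975 CPM in the erastin libraries. Hspa8 had a log2 fold change of 0.85 (SE 0.07, adjusted p = 1.62e-07), and its groups did not overlap. Hspa2, known for its role in sperm formation, was at 37.9, 34.9 and 33.7 CPM in the DMSO libraries and 38.1, 40.9 and 41.7 CPM in the erastin libraries and did not pass (log2 fold change 0.18, adjusted p = 0.18; 95% interval of the log2 fold change -0.02 to 0.38). The third gene of the Hspa1 cluster, Hspa1l, known from testis, had no count in any DMSO library and 22, 6 and 11 counts in the erastin libraries, 0.651 ± 0.340 CPM (SD, n = 3). This was at least 3.12-fold higher than the mean floor of 3 counts per DMSO library (0.209 CPM). The filter on low counts left Hspa1l out. It passed in the 4 alternatives that tested it, with no filter (adjusted p = 0.00140) or with 1 library left out (0.00140 to 0.0139 over the 4). With 1 library left out, Hspa1l cleared the filter only through erastin libraries, the group where it is high, so passing there adds no support. Of its exon bases 71.9% overlap Gm10501 on the opposite strand, and 5.65% of its transcript windows are shared with Hspa1a and Hspa1b. Gm10501 was at 0.982, 2.61 and 0.778 CPM in the DMSO libraries and 1.44, 0.778 and 1.30 CPM in the erastin libraries (log2 fold change -0.33, adjusted p = 0.684).

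Set on a per-length scale, the cytosolic HSP70 transcripts Hspa1a, Hspa1b, Hspa1l, Hspa2 and Hspa8 together went from 193 ± 10.4 to 365 ± 13.9 CPM per kb (SD, n = 3 each). Hspa8 made up 89.5% ± 0.408 of this pool in DMSO and 85.3% ± 2.25 in erastin libraries. Hspa1a and Hspa1b together were 2.82, 3.14 and 3.84% of it in the DMSO libraries and 11.1, 12.3 and 7.46% in the erastin libraries. Thus Hspa8 remained the most abundant cytosolic HSP70 transcript in all 6 libraries, while the share of the inducible pair was higher in every erastin library than in any DMSO library. Of the transcript windows of Hspa8, 31.6% are shared with other genes. As for Hspa1a and Hspa1b, reads matching several genes may have been split or left uncounted, so the size of these shares is uncertain.

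Hspa12a and Hspa12b, distant relatives of HSP70, fell. Hspa12a was at 10.7, 12.4 and 13.5 CPM in the DMSO libraries and 6.61, 5.27 and 3.68 CPM in the erastin libraries. Hspa12a had a log2 fold change of -1.23 (SE 0.24, adjusted p = 0.000782), and its groups did not overlap. Hspa12b, known from endothelial cells, was at 9.44, 10.0 and 11.2 CPM in the DMSO libraries and 5.17, 5.03 and 8.56 CPM in the erastin libraries (log2 fold change -0.71, SE 0.25, adjusted p = 0.0301). Its groups did not overlap, but erastin replicate 3 came close to DMSO replicate 1. The call was lost without DMSO replicate 2 (adjusted p = 0.0645), DMSO replicate 3 (0.0705), erastin replicate 1 (0.124) or erastin replicate 2 (0.105). It was also lost with an offset for GC content and length (0.0789), and with that offset and the replicate block (0.0512). Adjusted p over all alternatives was 0.00429 to 0.124. Of the endothelial markers given above, Kdr and Tek were higher with erastin, and Pecam1 and Cdh5 were at most 0.778 CPM in any library. The part of endothelial cells in the values of Hspa12b was not tested.

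The HSP110 proteins release ADP from HSP70 and so reset its cycle, and all 3 of their genes rose, against 21.6% of all genes. Hsph1 was at 121, 112 and 117 CPM in the DMSO libraries and 232, 205 and 219.9 CPM in the erastin libraries. Hsph1 had a log2 fold change of 0.91 (SE 0.08, adjusted p = 3.12e-07), and its groups did not overlap. Hspa4 was at 262, 265 and 237 CPM in the DMSO libraries and 411, 401 and 374 CPM in the erastin libraries. Hspa4 had a log2 fold change of 0.63 (SE 0.07, adjusted p = 6.53e-06), and its groups did not overlap. The less abundant Hspa4l was at 31.9, 22.4 and 26.9 CPM in the DMSO libraries and 70.5, 67.6 and 68.5 CPM in the erastin libraries (log2 fold change 1.35, SE 0.12, adjusted p = 4.49e-07). Hspa4l did not overlap between groups either, and the summed level of the 3 went from 398 ± 16.5 to 683 ± 26.6 CPM (SD, n = 3 each).

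J proteins of class A, the relatives of the bacterial partner of HSP70 that hand it unfolded clients, also rose in all 4 cases. Among all genes tested, 21.6% were higher. Dnaja2, of the cytosol, was at 123, 119.6 and 108 CPM in the DMSO libraries and 191, 196 and 185 CPM in the erastin libraries. Dnaja2 had a log2 fold change of 0.71 (SE 0.08, adjusted p = 4.36e-06), and its groups did not overlap. Dnaja4 was at 17.3, 19.6 and 22.3 CPM in the DMSO libraries and 44.4, 40.3 and 38.6 CPM in the erastin libraries (log2 fold change 1.06, SE 0.13, adjusted p = 8.64e-06). Dnaja1 was at 35.2, 35.3 and 31.1 CPM in the DMSO libraries and 48.8, 41.1 and 44.6 CPM in the erastin libraries (log2 fold change 0.40, SE 0.11, adjusted p = 0.00737). Dnaja4 and Dnaja1 did not overlap between groups either. The rise of Dnaja1 no longer passed with an offset for GC content and length (adjusted p = 0.151; 0.178 when also blocked by replicate number) or without erastin replicate 1 (0.0553), and its adjusted p ran from 0.00348 to 0.178 over the alternatives. Of the exon bases of Dnaja4, 44.1% overlap Wdr61 on the opposite strand, which was at 28.3, 28.0 and 36.7 CPM in the DMSO libraries and 40.6, 45.3 and 33.3 CPM in the erastin libraries (log2 fold change 0.36, adjusted p = 0.0502). Whether counting used the strand is not given in the sources used here.

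Class B J proteins were mixed: 4 of 9 tested members rose, 1 fell and 4 did not pass, with a median log2 fold change of 0.14. Of all genes tested, 21.6% were higher and 21.5% lower. Dnajb4, a stress-inducible partner of HSP70 in the cytosol (chr3:152178511-152210302), was at 71.0, 72.3 and 60.7 CPM in the DMSO libraries and 216, 218 and 211 CPM in the erastin libraries (log2 fold change 1.66, SE 0.09, adjusted p = 2.21e-09), the smallest adjusted p of all members. Dnajb1, the classical HSP40 that works with the inducible HSP70, was at 56.4, 52.3 and 53.3 CPM in the DMSO libraries and 84.9, 93.7 and 71.2 CPM in the erastin libraries. Dnajb1 had a log2 fold change of 0.62 (SE 0.10, adjusted p = 0.000198), and its groups did not overlap. For Dnajb4, too, all DMSO libraries lay below all erastin libraries.

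Dnajb2, which links HSP70 clients to ubiquitin, rose from 29.0 ± 1.27 to 42.3 ± 1.36 CPM (SD, n = 3 each; log2 fold change 0.55, adjusted p = 0.000633). Dnajb6, which holds back the clumping of polyglutamine proteins, was at 12.2, 6.21 and 10.3 CPM in the DMSO libraries and 15.8, 13.9 and 13.8 CPM in the erastin libraries (log2 fold change 0.61, SE 0.22, adjusted p = 0.0385). The Dnajb6 groups did not overlap, but DMSO replicate 2 was well below the others of its group. Its call was lost with upper-quartile scaling (adjusted p = 0.0564) and without DMSO replicate 2 (0.158), erastin replicate 1 (0.138), erastin replicate 2 (0.0667) or erastin replicate 3 (0.0531). Adjusted p was 0.0116 to 0.158 over the alternatives. Of its transcript windows 31.0% are shared with other genes.

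The class B member that fell, Dnajb11, is a co-chaperone of the ER. It was at 71.5, 78.7 and 85.0 CPM in the DMSO libraries and 65.5, 67.2 and 60.4 CPM in the erastin libraries (log2 fold change -0.28, SE 0.09, adjusted p = 0.0221). Although the groups did not overlap, the fall did not pass with scaling by total counts (adjusted p = 0.0727) or without DMSO replicate 2 (0.0637), DMSO replicate 3 (0.0787), erastin replicate 1 (0.0592) or erastin replicate 3 (0.0728). For Dnajb11, adjusted p was 0.00819 to 0.0787 over the alternatives. Dnajb12 and Dnajb14, both anchored in the ER membrane, Dnajb5 and the barely counted Dnajb3 did not pass, with log2 fold changes from -0.12 to 0.14.

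Class C, the J proteins that share only the J domain and serve many separate tasks, was spread to both sides: 6 of 23 tested members rose, 3 fell and 14 did not pass, with a median log2 fold change of 0.16. The share that passed, 9 of 23, was near the 43.1% of all genes. Dnajc2, which sits on the ribosome and helps HSP70 meet growing chains, was at 20.1, 15.7 and 19.7 CPM in the DMSO libraries and 33.1, 30.8 and 38.6 CPM in the erastin libraries (log2 fold change 0.89, SE 0.14, adjusted p = 0.000124). Dnajc21, which takes part in making the large ribosomal subunit, was at 12.0, 13.4 and 8.56 CPM in the DMSO libraries and 17.6, 18.9 and 25.6 CPM in the erastin libraries (log2 fold change 0.86, SE 0.20, adjusted p = 0.00253). Dnajc17, linked to splicing, was thinly counted, at 2.49, 2.16 and 1.87 CPM in the DMSO libraries and 3.86, 5.51 and 7.42 CPM in the erastin libraries (log2 fold change 1.36, SE 0.35, adjusted p = 0.00538). Dnajc2, Dnajc21 and Dnajc17 had no overlap between groups, and the erastin libraries of Dnajc17 were spread from 3.86 to 7.42 CPM.

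Smaller rises were those of Dnajc11, which helps shape the inner mitochondrial membrane (log2 fold change 0.43, adjusted p = 0.00643), Dnajc7, which binds both HSP70 and HSP90 (log2 fold change 0.38, adjusted p = 0.0079), and Dnajc8, a splicing factor (log2 fold change 0.28, adjusted p = 0.0242). The rise of Dnajc8 was lost under 7 of 15 alternatives: upper-quartile scaling (adjusted p = 0.0631), the offset for GC content and length without (0.0569) and with the replicate block (0.0726), and without DMSO replicate 2 (0.061), DMSO replicate 3 (0.0681), erastin replicate 2 (0.0503) or erastin replicate 3 (0.0916). Its adjusted p ran from 0.0091 to 0.0916.

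Dnajc9, a histone chaperone, was at 21.6, 21.3 and 29.0 CPM in the DMSO libraries and 16.2, 10.6 and 17.0 CPM in the erastin libraries (log2 fold change -0.71, SE 0.19, adjusted p = 0.00713). Dnajc10, a disulfide reductase of the ER, was at 189.7, 185 and 164 CPM in the DMSO libraries and 132, 122 and 148 CPM in the erastin libraries (log2 fold change -0.42, SE 0.09, adjusted p = 0.00144), and the groups of neither overlapped. Dnajc25, a membrane protein, was at 36.8, 31.2 and 27.7 CPM in the DMSO libraries and 24.0, 20.1 and 24.7 CPM in the erastin libraries (log2 fold change -0.48, SE 0.14, adjusted p = 0.0118). The Dnajc25 groups did not overlap either, but its call was lost without DMSO replicate 1 (adjusted p = 0.07) or erastin replicate 2 (0.0559), within 0.00269 to 0.07 over the alternatives. The 14 members that did not pass ran from -0.34 for Dnajc24, needed for the diphthamide modification of a translation factor, to 0.77 for Dnajc28. Without DMSO replicate 2 Dnajc28 passed (log2 fold change 2.01, adjusted p = 0.0132; adjusted p from 0.0132 to 0.595 over the alternatives). The most counted of them, Dnajc13, which works on endosomes, was at 179, 198 and 193 CPM in the DMSO libraries and 212, 219 and 208 CPM in the erastin libraries (log2 fold change 0.16, adjusted p = 0.081; 95% interval 0.02 to 0.31). Dnajc5, which chaperones proteins of secretory vesicles, was at 131, 135 and 151 CPM in the DMSO libraries and 168, 158 and 153 CPM in the erastin libraries (log2 fold change 0.20, adjusted p = 0.0618; 95% interval 0.04 to 0.36). Both had all erastin libraries above all DMSO libraries, yet missed the threshold. Dnajc13 passed with scaling by total counts (adjusted p = 0.0221), and its log2 fold change was 0.02 with the offset for GC content and length (adjusted p from 0.0221 to 0.877 over the alternatives). Dnajc5 passed without DMSO replicate 3 (adjusted p = 0.0182) and with scaling by total counts (0.0196), within 0.0182 to 0.291 over the alternatives.

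**Figure D2:**
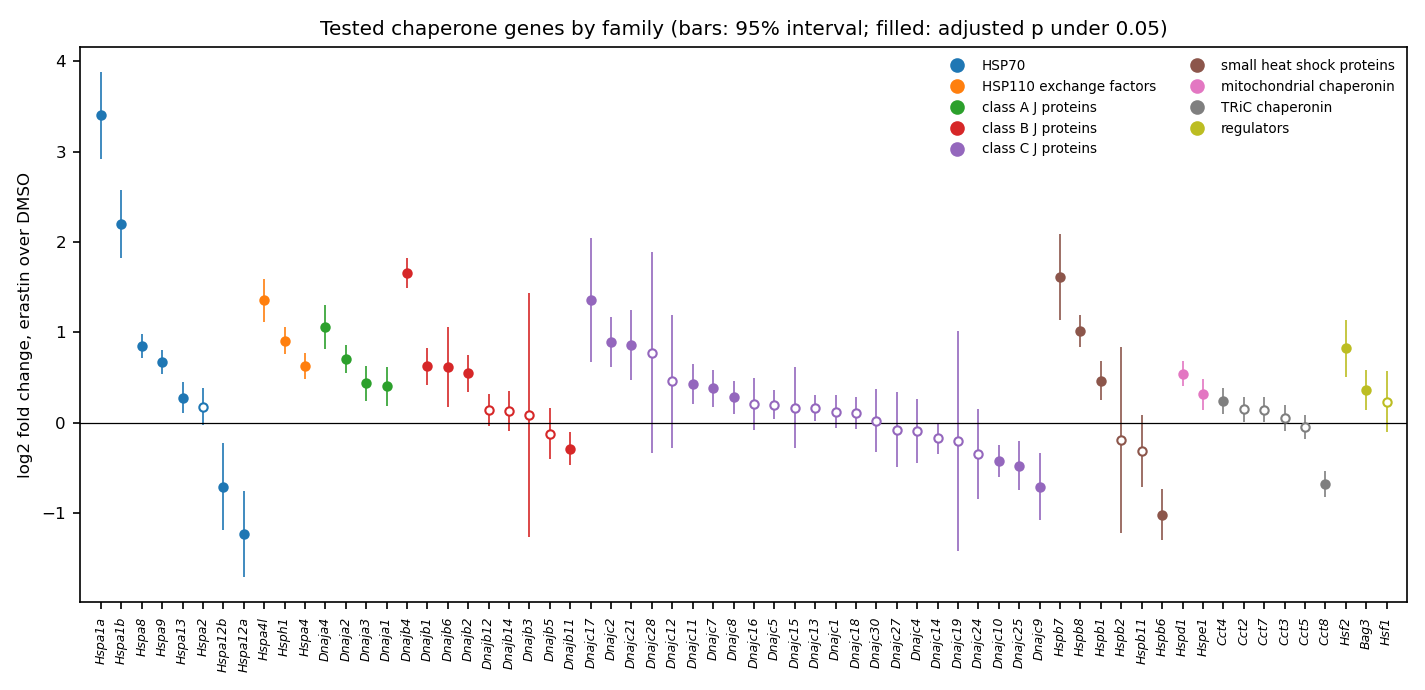
Log2 fold change of erastin over DMSO for each of the 64 tested members, ordered within families, with 95% intervals from normal quantiles as bars and filled points at an adjusted p under 0.05. HSP110, class A J proteins and the mitochondrial chaperonin lie wholly above 0, and class C J proteins and the cytosolic chaperonin TRiC spread around it.

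Mitochondria have their own HSP70, chaperonin and J proteins, which fold the proteins brought in from the cytosol. Hspa9, the mitochondrial HSP70 that also pulls proteins across the inner membrane, was at 641, 647 and 602 CPM in the DMSO libraries and 1016, 942 and 1047 CPM in the erastin libraries. Hspa9 had a log2 fold change of 0.67 (SE 0.07, adjusted p = 1.85e-06), and its groups did not overlap. Hspd1, the subunit of the chaperonin ring, was at 146, 142 and 139 CPM in the DMSO libraries and 209, 201 and 212 CPM in the erastin libraries. Hspd1 had a log2 fold change of 0.54 (SE 0.07, adjusted p = 2.39e-05), and its groups did not overlap. Its lid, Hspe1, was at 64.5, 57.8 and 60.9 CPM in the DMSO libraries and 73.0, 74.1 and 80.6 CPM in the erastin libraries. Hspe1 had a log2 fold change of 0.31 (SE 0.09, adjusted p = 0.00987), and its groups did not overlap. Per length, Hspd1 went from 58.7 ± 1.53 to 85.6 ± 2.48 CPM per kb and Hspe1 from 63.3 ± 3.47 to 78.7 ± 4.24 CPM per kb (SD, n = 3 each), so the level of the lid was close to that of the ring in both groups. The rise of Hspe1 did not pass without DMSO replicate 2 (adjusted p = 0.0525, with 0.00392 to 0.0525 over the alternatives), and 26.9% of the transcript windows of Hspd1 are shared with other genes.

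Dnaja3, the class A J protein of the matrix, was at 54.6, 49.3 and 59.7 CPM in the DMSO libraries and 72.7, 68.0 and 80.5 CPM in the erastin libraries (log2 fold change 0.44, SE 0.10, adjusted p = 0.00255), again without overlap. Of the other mitochondrial members, Dnajc11 rose, as given above, and Dnajc15, Dnajc19, Dnajc28 and Dnajc30 did not pass, at log2 fold changes from -0.20 to 0.77 with at most 15.0 CPM in any library.

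The chaperonin TRiC folds actin and tubulin in a double ring of 8 different subunits, and its genes went in different ways. Cct8 (chr16:87483326-87495873) was at 192, 200.1 and 193 CPM in the DMSO libraries and 122, 117 and 127 CPM in the erastin libraries (log2 fold change -0.68, SE 0.07, adjusted p = 3.44e-06), the only subunit that fell. Cct4 was at 228, 222 and 202 CPM in the DMSO libraries and 253, 254 and 267 CPM in the erastin libraries. Cct4 had a log2 fold change of 0.25 (SE 0.07, adjusted p = 0.0142), and its groups did not overlap. The erastin libraries were all below the DMSO libraries for Cct8. The 95% intervals that follow use normal quantiles and are narrower than the quasi-likelihood test implies. Those of Cct2 and Cct7 leave out 0, though the unadjusted p of that test was 0.051 for Cct2 and 0.0542 for Cct7. Cct2 (log2 fold change 0.15, adjusted p = 0.101; 95% interval 0.01 to 0.28), Cct7 (log2 fold change 0.14, adjusted p = 0.106; 0.01 to 0.28), Cct3 (log2 fold change 0.05, adjusted p = 0.581; -0.09 to 0.20) and Cct5 (log2 fold change -0.05, adjusted p = 0.636; -0.18 to 0.09) did not pass.

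The subunits outside the name pattern were Tcp1, at 297, 314 and 260.3 CPM in the DMSO libraries and 296, 279 and 292 CPM in the erastin libraries (log2 fold change -0.01, adjusted p = 0.941), and Cct6a, at 184, 169 and 166 CPM in the DMSO libraries and 202, 211 and 198 CPM in the erastin libraries (log2 fold change 0.24, adjusted p = 0.0174). The rise of Cct6a was lost with upper-quartile scaling (adjusted p = 0.0608) and without DMSO replicate 2 (0.0713), erastin replicate 1 (0.0583) or erastin replicate 2 (0.0694), within 0.00579 to 0.0713. As a share of the counts of all 8 subunits in a library, Cct8 was 9.45, 9.93 and 10.3% in the DMSO libraries and 6.06, 5.71 and 6.25% in the erastin libraries. The fall of Cct8 passed under all alternatives tried (adjusted p 5.21e-18 to 0.00011). In contrast, the rise of Cct4 was lost with upper-quartile scaling (adjusted p = 0.0504), with the offset for GC content and length under the replicate block (0.0635) and without DMSO replicate 3 (0.0514), within 0.0033 to 0.0635. Cct2 (0.0347) and Cct7 (0.0355) passed with scaling by total counts, and the sign of Cct5 turned (0.02). Of the exon bases of Cct8, 6.22% overlap Usp16 on the opposite strand, which was at 41.6, 48.3 and 46.7 CPM in the DMSO libraries and 54.1, 65.9 and 47.5 CPM in the erastin libraries (log2 fold change 0.29, adjusted p = 0.0636).

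**Figure D3:**
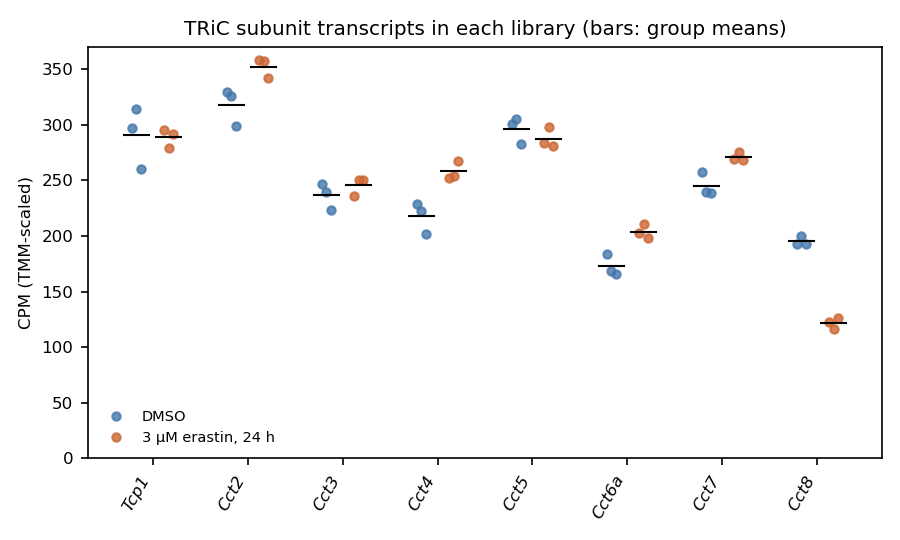
Levels of the 8 subunits of TRiC in each library, in TMM-scaled CPM on a linear axis from 0, with DMSO in blue, erastin in orange and bars at the group means. The 3 erastin points of Cct8 lie at 117 to 127 CPM, below all 3 DMSO points, while for Tcp1, Cct3 and Cct5 the groups overlap.

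Of the 6 small heat shock protein genes tested, 3 rose, 1 fell and 2 did not pass, beside 21.6% of all genes higher and 21.5% lower. Hspb8, which works with BAG3 to send misfolded proteins to autophagy, was at 84.1, 69.7 and 73.6 CPM in the DMSO libraries and 157, 158 and 143 CPM in the erastin libraries. Hspb8 had a log2 fold change of 1.01 (SE 0.09, adjusted p = 4.7e-07), and its groups did not overlap. Hspb1, or HSP25, was at 67.9, 60.9 and 81.7 CPM in the DMSO libraries and 90.3, 107 and 93.4 CPM in the erastin libraries. Hspb1 had a log2 fold change of 0.47 (SE 0.11, adjusted p = 0.00302), and its groups did not overlap. Hspb7, best known from heart and skeletal muscle, was at 3.55, 2.72 and 3.66 CPM in the DMSO libraries and 9.5, 9.88 and 10.8 CPM in the erastin libraries (log2 fold change 1.61, SE 0.24, adjusted p = 8.47e-05). The erastin libraries of Hspb7 were all above its DMSO libraries. Of the transcript windows of Hspb1, 42.7% are shared with the pseudogene Hsp25-ps1.

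Hspb6, or HSP20, best known from smooth and striated muscle, moved the other way and was at 38.8, 29.4 and 31.3 CPM in the DMSO libraries and 17.2, 17.3 and 14.7 CPM in the erastin libraries (log2 fold change -1.01, SE 0.14, adjusted p = 4.21e-05), with no overlap. Hspb2 and Hspb11 did not pass, at log2 fold changes of -0.18 and -0.31. Of the 7 skeletal muscle markers, only Des, the intermediate filament desmin, had enough counts to test, and it went from 40.6 ± 4.97 to 66.7 ± 1.95 CPM (SD, n = 3 each; log2 fold change 0.72, adjusted p = 5.37e-05). The summed level of the 7 was 35.7 to 45.6 CPM in DMSO and 65.3 to 69.2 CPM in erastin libraries. The defining regulators Myod1, Myog and Myf5 were at or below 0.467 CPM in every library, with Myog at 0 in all 3 erastin libraries. The part of these markers in the values of Hspb6 and Hspb7 was not tested.

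Of the 3 regulators, Hsf2 and Bag3 rose and Hsf1 did not pass, beside 21.6% of all genes tested higher. Hsf1, the main transcription factor of the heat shock response, was at 22.7, 37.6 and 26.9 CPM in the DMSO libraries and 35.0, 40.2 and 28.1 CPM in the erastin libraries and did not pass (log2 fold change 0.24, SE 0.17, adjusted p = 0.296; 95% interval -0.10 to 0.58). Its groups overlapped, with DMSO replicate 2 above 2 of the 3 erastin libraries, and without that library the gene passed (log2 fold change 0.47, adjusted p = 0.0401; 0.0401 to 0.74 over the alternatives). Transcript level is not the activity of HSF1, which is set mainly on the protein. Hsf2, a related factor that pairs with HSF1, was at 14.1, 10.4 and 11.5 CPM in the DMSO libraries and 19.8, 21.6 and 22.1 CPM in the erastin libraries (log2 fold change 0.82, SE 0.16, adjusted p = 0.000779), without overlap.

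Bag3, an HSP70 exchange factor that HSF1 switches on, was at 41.4, 48.5 and 49.8 CPM in the DMSO libraries and 64.2, 64.1 and 51.3 CPM in the erastin libraries (log2 fold change 0.36, SE 0.11, adjusted p = 0.0172). Its groups were separated by less than 2 CPM, between DMSO replicate 3 and erastin replicate 3. The call was lost without DMSO replicate 1 (adjusted p = 0.0803), erastin replicate 1 (0.0936) or erastin replicate 2 (0.0743), and adjusted p over the alternatives was 0.00215 to 0.0936.

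The compartments in which the proteins work were assigned after the values had been seen, from general knowledge, and are a description. Among members of the cytosol and nucleus, 24 of 36 tested rose and 3 fell (median log2 fold change 0.51), and among those of mitochondria 5 of 9 tested rose and none fell (median log2 fold change 0.43). Among those of the ER, 1 of 9 tested rose and 2 fell (median log2 fold change 0.13). These counts stand beside 21.6% of all genes higher and 21.5% lower, and the ER share passing is not above the 43.1% of all genes. The ER member that rose was Hspa13, an HSP70 relative, which went from 69.2 ± 3.50 to 84.0 ± 4.21 CPM (SD, n = 3 each; log2 fold change 0.28, adjusted p = 0.0166). It did not pass with the offset for GC content and length (adjusted p = 0.563, 0.583 with the replicate block), nor without DMSO replicate 3 (0.0537) or erastin replicate 2 (0.0612), within 0.00568 to 0.583. Those that fell were Dnajb11 and Dnajc10. The summed level of the ER members went from 641 ± 11.3 to 613 ± 15.8 CPM and that of the mitochondrial members from 947 ± 21.1 to 1432 ± 65.0 CPM (SD, n = 3 each). The 10 tested members assigned to none of these had no rise and 3 falls, Hspa12a, Hspa12b and Dnajc25. The counts and medians of the compartments depend on leaving these members out.

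**Figure D4:**
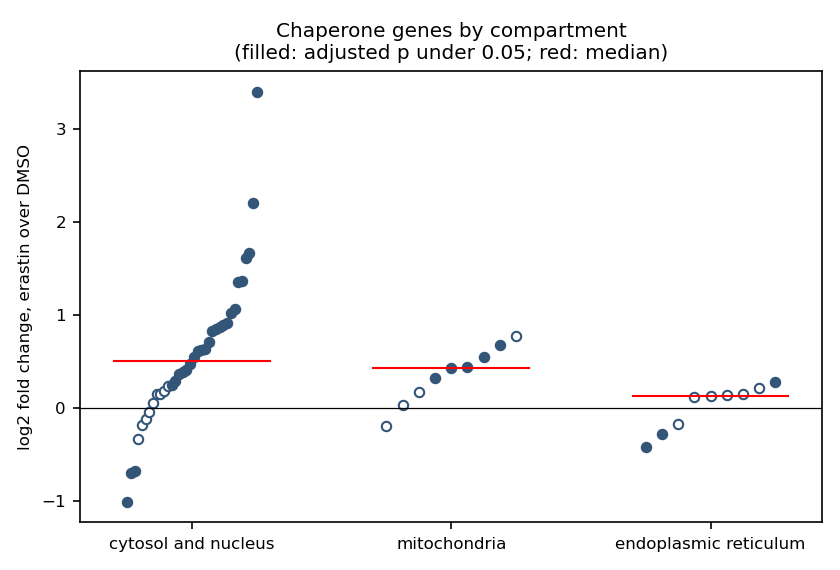
Log2 fold change of erastin over DMSO for the tested members of each compartment, with filled points at an adjusted p under 0.05 and red lines at the medians. The medians are 0.51 for cytosol and nucleus, 0.43 for mitochondria and 0.13 for the ER. The 10 tested members with no compartment assigned, among them 3 that fell, are not drawn.

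The regions before the gene starts were searched, on both strands, for heat shock elements. The RefSeq promoter table (GRCm38.p6) held 62 of the 76 members and 27025 genes in all, and the 250 bases before each start were read. A triple element, 3 alternating units of GAA and TTC with NN between them in either order, was found in 3 members (4.84%), Hspd1, Hspe1 and Dnajb6, and in 139 of all genes (0.514%). The shorter GAANNTTC was found in 13 members (21%, against 7.73% of all genes) and TTCNNGAA in 7 (11.3%, against 8.11%); a triple element holds both. Either was present in 17 members (27.4%, against 14.5%). Of the 15 tested members with one, 10 rose, 2 fell (Hspb6 and Dnajc10) and 3 did not pass (Cct2, Cct5 and Dnajc27). The elements of the members that fell or did not pass are not printed below. Of the 37 tested members without one, 14 rose. Of all genes tested, 21.6% were higher and 21.5% lower. The median log2 fold change was 0.47 with and 0.16 without an element among members, and 0.048 and 0.0028 among all genes tested. A match is only a string of letters, and its absence says only that these letters are not in this window.

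The following stretches show the elements of members that rose, chosen to span the J proteins, HSP110, the small heat shock proteins and the mitochondrial chaperonin, with the element in capitals and the strand of the gene (RefSeq, GRCm38.p6). They lie at chr5:135887769-135887918, plus strand, for Hspb1; chr3:152193846-152193905, minus strand, for Dnajb4; chr1:55088053-55088082, plus strand, for Hspe1; chr5:29735843-29735872, plus strand, for Dnajb6; chr5:149636351-149636380, minus strand, for Hsph1; and chr9:54699458-54699487, plus strand, for Dnaja4. The stretch of Dnaja4 shows its element at 90 to 83 bases before the start; another, at 52 to 45 bases, lies outside it.
Hspb1: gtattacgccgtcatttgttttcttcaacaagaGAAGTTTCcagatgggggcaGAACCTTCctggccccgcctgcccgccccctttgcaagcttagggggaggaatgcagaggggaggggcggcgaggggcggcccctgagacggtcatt
Dnajb4: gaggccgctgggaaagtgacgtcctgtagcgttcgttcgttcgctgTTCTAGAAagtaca
Hspe1: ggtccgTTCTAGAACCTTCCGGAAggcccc
Dnajb6: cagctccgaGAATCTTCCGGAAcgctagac
Hsph1: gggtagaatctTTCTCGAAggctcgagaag
Dnaja4: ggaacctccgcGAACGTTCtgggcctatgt
Hspb1 has an element at 117 to 110 and another at 97 to 90 bases before its start, and that of Dnajb4 ends 7 bases before its RefSeq start. That start, at chr3:152193845, lies inside the annotated Dnajb4 gene (chr3:152178511-152210302, minus strand), far from the gene's upstream end. The RefSeq starts of Hspe1, Dnajb6, Hsph1 and Dnaja4 also lie inside their annotated genes. Their windows overlap annotated exons, so only 30 bases around the element are printed. In Hspe1, overlapping elements run without a gap from 89 to 72 bases before the start. Hspe1 (chr1:55088132-55091307, plus strand) and Hspd1 (chr1:55077835-55088243, minus strand) are neighbours that start from a shared region in opposite directions, so this run of letters is counted for both genes. The annotated genes overlap by 112 bases there.

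Other genes that work with these chaperones were taken from 5 lists of 56 different genes, all of which could be tested. Of them 24 rose and 8 fell, against 21.6% and 21.5% of all genes, with a median log2 fold change of 0.17. HSP90 and its co-chaperones, 18 genes, had 6 rises, 5 falls and 7 that did not pass (median 0.018). Hsp90aa1, the inducible cytosolic HSP90, was at 245, 227 and 242 CPM in the DMSO libraries and 355, 367 and 361 CPM in the erastin libraries. Hsp90aa1 had a log2 fold change of 0.60 (SE 0.07, adjusted p = 5.52e-06), and its groups did not overlap. The constitutive Hsp90ab1 was at 1208, 1193 and 1140.2 CPM in the DMSO libraries and 1280.3, 1335 and 1258 CPM in the erastin libraries and did not pass (log2 fold change 0.13, adjusted p = 0.116; 95% interval 0.01 to 0.25), except with scaling by total counts (adjusted p = 0.0321, 0.0321 to 0.37 over the alternatives). The interval of Hsp90ab1 uses normal quantiles and leaves out 0, though its unadjusted p in the quasi-likelihood test was 0.0601. Ppid, the HSP90-binding cyclophilin 40, was at 20.9, 20.7 and 15.3 CPM in the DMSO libraries and 50.5, 53.4 and 54.8 CPM in the erastin libraries (log2 fold change 1.48, SE 0.13, adjusted p = 3.64e-07). Chordc1, an HSP90 co-chaperone also called morgana, was at 35.9, 36.1 and 34.5 CPM in the DMSO libraries and 66.7, 65.1 and 71.5 CPM in the erastin libraries (log2 fold change 0.93, SE 0.09, adjusted p = 1.38e-06). The groups of Ppid and Chordc1 did not overlap.

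Of 13 other HSP70 co-factors, 5 rose and none fell (median 0.13), beside 21.6% of all genes higher and 21.5% lower. Sgtb, a co-chaperone that binds HSP70 through its repeats, was at 8.46, 8.81 and 9.18 CPM in the DMSO libraries and 32.9, 29.0 and 28.5 CPM in the erastin libraries (log2 fold change 1.77, SE 0.14, adjusted p = 2.02e-07). The mitochondrial exchange factors Grpel2 (log2 fold change 0.77, adjusted p = 0.00211) and Grpel1 (log2 fold change 0.34, adjusted p = 0.0148), which serve Hspa9, also rose. Grpel1 did not pass when DMSO replicate 3 (adjusted p = 0.061) or erastin replicate 1 (0.0656) was left out, within 0.00492 to 0.0656. Of 10 helpers of the cytosolic chaperonin, 3 rose, 1 fell and 6 did not pass (median 0.078). In neither list was the share passing above the 43.1% of all genes. The 3 were subunits of prefoldin, which brings unfolded actin and tubulin to TRiC: Pfdn4 (log2 fold change 0.86, adjusted p = 0.00012), Vbp1 (log2 fold change 0.56, adjusted p = 0.0013) and Pfdn6 (log2 fold change 0.55, adjusted p = 0.00937). Pfdn6 did not pass when erastin replicate 2 was left out (adjusted p = 0.0544, range 0.000349 to 0.0544).

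Of 12 genes of mitochondrial protein quality control, 8 rose, 1 fell and 3 did not pass (median 0.33), beside 21.6% of all genes higher and 21.5% lower. Afg3l2, a subunit of a protease of the inner membrane, was at 52.5, 45.7 and 48.9 CPM in the DMSO libraries and 93.0, 92.6 and 91.6 CPM in the erastin libraries. Afg3l2 had a log2 fold change of 0.92 (SE 0.09, adjusted p = 1e-06), and its groups did not overlap. Lonp1, the matrix protease LON, was at 163, 186 and 205 CPM in the DMSO libraries and 330.0, 334 and 353 CPM in the erastin libraries (log2 fold change 0.88, SE 0.08, adjusted p = 1.06e-06). Clpb, a disaggregase, went from 27.4 ± 1.22 to 39.3 ± 1.28 CPM (SD, n = 3 each; log2 fold change 0.52, adjusted p = 0.00117). Of 13 further genes linked to HSF1, some of them also on the other lists, 8 rose, 1 fell and 4 did not pass (median 0.38). Sqstm1, the autophagy receptor p62, which other stress factors also switch on, was at 533, 565 and 577 CPM in the DMSO libraries and 2392, 2526 and 2239.6 CPM in the erastin libraries. Sqstm1 had a log2 fold change of 2.10 (SE 0.07, adjusted p = 9.24e-11), and its groups did not overlap. Cryab, the small heat shock protein alpha B crystallin, was at 113, 111 and 96.1 CPM in the DMSO libraries and 247, 262 and 202 CPM in the erastin libraries (log2 fold change 1.15, SE 0.10, adjusted p = 3.89e-07). The groups of Cryab did not overlap. The gene that fell, Serpinh1, is the ER chaperone of collagen and went from 2311 ± 82.9 to 1702 ± 47.5 CPM (SD, n = 3 each; log2 fold change -0.44, adjusted p = 4.92e-05); the collagen gene Col1a1 was lower as well, as given above.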

How the data were processed

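Whole-number read counts for 43346 genes in 6 libraries were deposited by the authors in 1 table. Its column headers are sample numbers and name no normalization. Unused columns numbered 0, and 0 rows named no gene. The submitters' processing notes name HTSeq 0.9.1, SAMtools and the build mm10. The aligner, the annotation release, the strand setting and the treatment of reads matching several genes are not given in the sources used here. Per the labels' protocols, libraries were amplified by PCR without molecular identifiers being described, so the detection floor of 3 counts covers counting error only. Columns were matched to libraries by the sample numbers in the labels. Versioned Ensembl identifiers were matched to GENCODE M21 (GRCm38, the same assembly as mm10) without their version, and 42462 (98.0%) had a symbol.

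The analysis used R 4.3.3 with edgeR 4.0.16, which rests on limma 3.58.1. Genes that passed filterByExpr were tested (minimum count 10, total 15, 3 libraries), 14000 in number, and libraries were scaled by TMM factors. CPM are counts scaled to library size with those factors, and CPM per kb are CPM divided by the length of the longest transcript. The quasi-likelihood test set the erastin against the DMSO libraries, with no term but treatment, and p-values were adjusted by Benjamini-Hochberg over all 14000 genes, with a threshold of 0.05. The SE of a log2 fold change is its size divided by the square root of F. The 95% intervals take this SE with normal quantiles, so they are narrower than the quasi-likelihood test implies. An interval can therefore leave out 0 where the unadjusted p is above 0.05. The scripts were tested on simulated data. No pair of replicates agreed within sampling noise (chi-square per degree of freedom 11 to 19.2 within groups). The replicate numbers of the titles are the only link between groups, and the deviations of equally numbered libraries correlated at 0.0601, 0.00344 and -0.0096, so they were not treated as pairs.

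Members and lists were chosen with earlier results of these data known. Values in each library are given for the regulators, the core cytosolic and mitochondrial chaperones and the 6 members that rose most and the 6 that fell most (adjusted p under 0.05, mean count of at least 50, no overlap of the groups); further names are those with the smallest p in each family (2) and list (3), and others were picked after their values were seen. Alternatives were RLE, upper-quartile and total-count scaling, no filter, a filter of 1 CPM in 3 libraries, the replicate block, an offset for GC content and transcript length (mgcv 1.9.3) without and with that block, DESeq2 1.42.0, leaving out each library and an adjusted p under 0.01. Near-identical copies were looked for as windows of 100 bases of each member's longest transcript that occur in any transcript of another gene.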

Additional observations from a re-analysis of the deposited data

How the results depend on the processing

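Of the 38 members that passed, 28 (23 higher, 5 lower) did so under all 15 alternatives that refit the data, and none of the 38 changed sign. The other 10 lost their call somewhere, and 7 members that did not pass gained one somewhere. Leaving out 1 library at a time gave 33 to 37 members passing, 27 to 30 higher and 6 to 7 lower, with a median log2 fold change of 0.24 to 0.30. At an adjusted p under 0.01 the number lower went from 8 to 5. The median log2 fold change, 0.24 with TMM factors, was 0.19 with upper-quartile factors, 0.31 with total counts only, 0.28 with no filter on low counts and 0.21 with the offset for GC content and length under the replicate block. The block alone left 38 members passing, 30 higher and 8 lower, with a median of 0.25, and 5882 genes passing in all; no member called without it lost its call. Scaling moved all genes together: the median over all genes was -0.0014 with TMM, -0.055 with upper-quartile and 0.065 with total-count scaling, and the share of calls that were higher was 50.2%, 44% and 57.1%. Of the members that did not pass, 10 changed the sign of the log2 fold change somewhere, and so did Tcp1, which is no member. With the GC and length offset, and then with the block too, Cct3 was at -0.013 and -0.013, Dnajb14 was at -0.071 and -0.068, Dnajc4 was at 0.096 and 0.094 and Hspb2 at 0.070 and 0.011. Total counts gave 0.018 for Cct5 and 0.056 for Tcp1, upper-quartile factors gave -0.029 for Dnajc30, and no filter gave 0.011 for Tcp1. With 1 library left out, values spanned 0 in Dnajb3 (-0.31 to 0.46), Dnajb5 (-0.24 to 0.033), Dnajc19 (-0.41 to 0.14), Dnajc27 (-0.19 to 0.018), Dnajc30 (-0.076 to 0.12), Hspb2 (-0.58 to 0.15) and Tcp1 (-0.084 to 0.053). The cause was not tested. With 3 libraries a group, an exact permutation test of a single gene cannot go below p = 0.1, and 6 of the 12 members left out by the filter had no count to test. Without the filter the other 6 were tested and 1, Hspa1l, passed (adjusted p = 0.0014); for Hspb9, Cct6b, Dnajb13, Dnajc6 and Dnajc22 it ran from 0.271 to 0.973.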

Other observations

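The 3 ER chaperones that the name rule leaves out did not move together. Hspa5, or BiP, the HSP70 of the ER, was at 771, 799 and 771 CPM in the DMSO libraries and 956, 936 and 903 CPM in the erastin libraries (log2 fold change 0.26, SE 0.06, adjusted p = 0.00441). Dnajb9, a J protein that regulates the ER stress sensor IRE1, was at 22.4, 18.6 and 23.3 CPM in the DMSO libraries and 44.6, 41.5 and 43.3 CPM in the erastin libraries (log2 fold change 1.01, SE 0.12, adjusted p = 7.97e-06). The groups of Hspa5 and Dnajb9 did not overlap. Dnajc3, a J protein of the ER lumen also known as P58IPK, was at 153, 145 and 146 CPM in the DMSO libraries and 125, 125 and 139.8 CPM in the erastin libraries and did not pass (log2 fold change -0.19, adjusted p = 0.0704), although every erastin library was below every DMSO library; it passed with upper-quartile scaling (adjusted p = 0.0235) and with the offset for GC content and length (0.00149; 0.00212 with the replicate block) and without erastin replicate 3 (0.032), within 0.00149 to 0.274 over the alternatives.

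Other stress elements were also searched for in the 250 bases before the starts. TGATGNAA, an ATF4-type composite element, was in 3.91% of all genes, in 2.33% of the tested genes among them and in 0 of the 62 members. At so low a share few matches can be awaited in 62 genes, so the 0 cannot be told from the background. TGACNNNGC, an antioxidant response element, was in 11.5% of all genes, in 13.9% of the tested genes among them and in 9 members (14.5%). The share of members was thus near that of the tested genes. Of those 9, all tested, 5 rose and 4 did not pass, beside 21.6% of all genes tested higher and 21.5% lower.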
